A study of Mus musculus with 4 samples.

Results

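The genes described here encode the constant regions of mouse immunoglobulin heavy chains (Ighm, Ighd, Ighg3, Ighg1, Ighg2b and Igha) and 4 proteins of the cells that secrete antibody (Jchain, Mzb1, Xbp1 and Prdm1). They were measured in whole lung. The gene name column of the scanner files gave 7 probes for 5 of these genes. The other 5 genes, Ighm, Ighd, Ighg1, Ighg2b and Igha, carry only a transcript identifier in that column, so 10 more probes, among them another one for Ighg3, were taken from the description column. In all, 17 probes of 10 genes were found among 56605 probes and 25010 named genes. The members were proposed with their signals known, so every value below is a description of these arrays and carries no test.

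The study hybridised lung RNA of C57BL/6J mice to 4 Agilent 1-colour arrays. The groups were ORX with PPE, sham with PPE, ORX with PBS and sham with PBS, all by inhalation and all sampled at 3 weeks. The title speaks of testosterone deficiency and of elastase, and on that basis ORX is taken here to mean orchiectomy and PPE to mean porcine pancreatic elastase. Each array held RNA pooled from 5 mice, so each group was 1 array, and neither the spread between mice nor a p-value could be had. The mice's age is not given in the sources used here.

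A B cell first makes IgM and IgD from the mu and delta constant genes. Class switch recombination then joins its variable region to a downstream gamma, epsilon or alpha constant gene, which sets the isotype of the antibody. The cell may become a plasma cell, in which immunoglobulin transcripts are among the most abundant messages. IgA with J chain is the main antibody of mucosal surfaces, including the airways.

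Heavy chain isotypes are similar in sequence, so what a value stands for depends on the letters of its probe. The probes printed here are those with an open reading frame that carry the isotype comparisons. Probes are numbered along the direction of transcription where a gene has more than 1. Coordinates of the printed probes are on the minus strand of mm9 chromosome 12, as the files give them. Capitals mark the longest run that probes of different isotypes shared, 13 bases in Ighg3 1 and Ighg2c 1.
Ighm 1: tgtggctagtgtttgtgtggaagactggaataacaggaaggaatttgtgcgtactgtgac
Ighg3 1: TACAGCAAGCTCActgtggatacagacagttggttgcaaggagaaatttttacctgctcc
Ighg3 2: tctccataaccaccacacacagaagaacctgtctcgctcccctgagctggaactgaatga
Ighg1: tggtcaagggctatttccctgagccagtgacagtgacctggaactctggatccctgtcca
Ighg2b: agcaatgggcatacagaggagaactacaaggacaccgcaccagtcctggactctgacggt
Ighg2c 1: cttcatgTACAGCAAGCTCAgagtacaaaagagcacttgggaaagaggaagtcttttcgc
Ighg2c 2: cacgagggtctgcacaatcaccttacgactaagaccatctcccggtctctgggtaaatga
Igha 1: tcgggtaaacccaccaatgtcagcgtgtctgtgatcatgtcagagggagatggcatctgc
Ighm 1 lies at chr12:114659630-114659689, Ighg3 1 at chr12:114597942-114598001, Ighg1 at chr12:114568594-114568653 and Ighg2b at chr12:114544738-114544797. Ighg2c 1 and 2 lie at chr12:114525673-114525732 and chr12:114525600-114525659, and Igha 1 at chr12:114496985-114497044. Ighg3 2 begins 14 bases beyond Ighg3 1, and its 60 bases align across 1532 bases of the genome, from 114596396 to 114597927, so it crosses an intron. Membrane-bound heavy chains are made by splicing the last constant domain exon to membrane exons farther downstream. Which form each probe reads was not tested. Ighg3 1 aligns without a gap and Ighg3 2 across a splice junction, so the 2 need not read the same forms of the transcript.

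Levels below are processed signals in intensity units as the scanner software gave them, and differences are log2 values after each array was divided by its 75th percentile. Those percentiles were 860.9 for ORX/PPE, 829.8 for sham/PPE, 999.2 for ORX/PBS and 852.9 for sham/PBS, and 71.8% to 75.3% of probes were well above background. The scanner's own error of about 10% a spot gives a difference between 2 bright single spots an SE of 0.20. Replicate spots within an array varied less, with a median SD equivalent to 0.046 to 0.052 for a difference, and neither figure holds any variation between mice. The comparisons are PPE against PBS in each surgery and ORX against sham under each agent. Each comparison of PPE shares an array with each comparison of ORX, so their values are set side by side and were not counted as separate evidence.

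Ighg3, the constant gene of IgG3, differed more between the arrays than any other member. Ighg3 1 had a signal of 137 on ORX/PPE and 342 on sham/PPE, against 292 on ORX/PBS and 26.9 on sham/PBS. Ighg3 2 had 182 on ORX/PPE and 448 on sham/PPE, against 383 on ORX/PBS and 101 on sham/PBS. Both probes were highest on sham/PPE, then on ORX/PBS, then on ORX/PPE, and lowest on sham/PBS. With PPE in sham mice Ighg3 1 was 13.1-fold higher, a log2 difference of 3.71 with a scanner SE of 0.24, and Ighg3 2 was 4.58-fold higher at 2.19 with an SE of 0.21. With PPE in ORX mice they had log2 differences of -0.88 and -0.86, the opposite direction. Under PPE, ORX lungs were 2.59-fold lower at -1.37 and 2.56-fold lower at -1.35. Under PBS, ORX lungs were 9.27-fold higher at 3.21 and 3.25-fold higher at 1.70. In bulk lung RNA, fewer cells of a type and less RNA per cell cannot be told apart.

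The 2 probes of Ighg3 had the same sign in every comparison, and their sizes parted only where the sham/PBS array entered. They differed by 0.02 on the log2 scale in both comparisons without that array and by 1.52 and 1.51 in those with it. Background correction by normexp with an offset of 50 left PPE in sham mice at 2.10 for Ighg3 1 and 1.71 for Ighg3 2, and ORX under PBS at 1.64 and 1.24. It left both past 2-fold lower for ORX under PPE, at log2 differences of -1.06 and -1.14.

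No member besides Ighg3 passed 2-fold in any comparison. With PPE in sham mice 2 of 16 measured member probes passed 2-fold upward, 0 downward and 14 neither, where 1.12% of all probes were higher and 0.698% lower. With PPE in ORX mice 0 were higher and 0 lower, where 0.752% of all probes were higher and 0.371% lower. For ORX under PPE 0 were higher and 2 lower, beside 0.421% and 1.12% of all probes, and for ORX under PBS 2 were higher and 0 lower, beside 0.649% and 1.38%. The called probes were the same 2 of Ighg3 each time. The members were picked from these contrasts, so nothing is read from the shares. The median log2 difference of the 16 probes was -0.01 for PPE in ORX and 0.49 for PPE in sham mice, -0.11 for ORX under PPE and 0.35 for ORX under PBS, where the medians of all probes were 0.00, -0.01, 0.00 and -0.02.

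**Figure D1:**
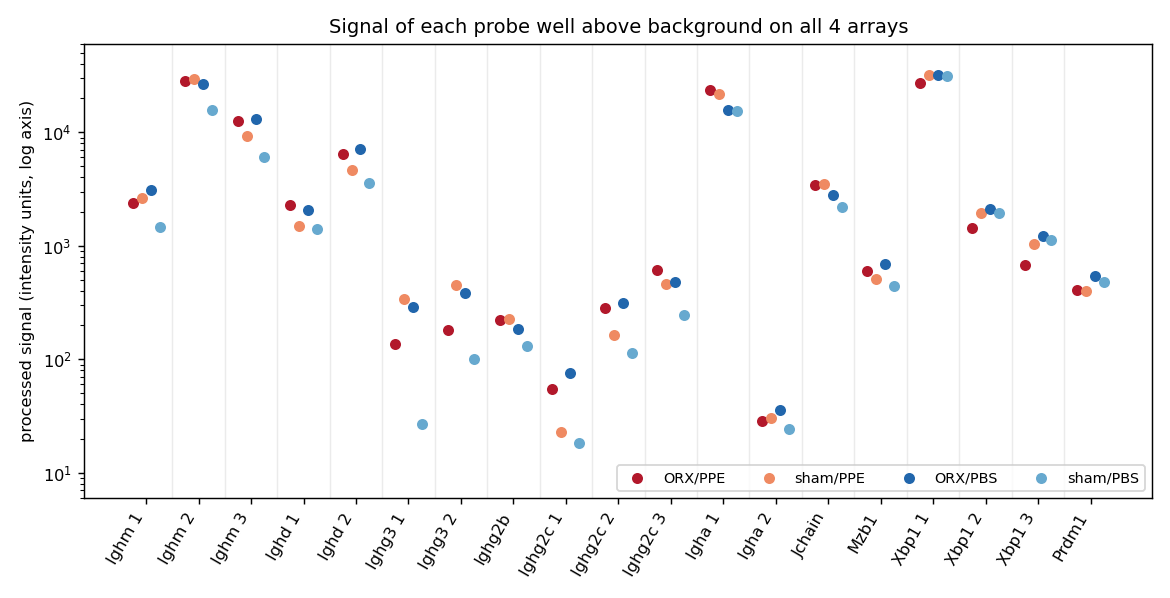
Processed signal (intensity units, log axis) of each heavy chain constant and plasma cell probe well above background on all 4 arrays, with 1 point for each array. Both Ighg3 probes stood highest on sham/PPE and lowest on sham/PBS, and the 3 Xbp1 probes stood lowest on ORX/PPE. Levels of different probes are not comparable.

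The sham/PBS array was the lowest for most heavy chain probes. Of 11 heavy constant member probes 10 were well above background on every array, and 9 of those 10 had their lowest scaled value on sham/PBS. Over all 16 measured member probes 11 were lowest on sham/PBS and 4 on ORX/PPE, while 9 were highest on sham/PPE and 0 on ORX/PBS. Sham/PBS is the reference in both PPE against PBS in sham mice and ORX against sham under PBS, the comparisons with the positive medians.

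Ighm encodes the mu constant region of IgM, the first isotype a B cell makes. Ighm 1 had a signal of 2365 on ORX/PPE and 2639 on sham/PPE, against 3084 on ORX/PBS and 1478 on sham/PBS. Ighm 2, 588 bases farther along, had 28059 on ORX/PPE and 29604 on sham/PPE, against 26767 on ORX/PBS and 15733 on sham/PBS. Ighm 3, which belongs to another transcript and lies 2152 bases beyond Ighm 2, had 12524 on ORX/PPE and 9211 on sham/PPE, against 13151 on ORX/PBS and 6017 on sham/PBS. All 3 probes were low on sham/PBS alone. Their log2 differences were 0.88, 0.95 and 0.65 for PPE in sham mice and 0.83, 0.54 and 0.90 for ORX under PBS. In the comparisons without the sham/PBS array the probes did not share a sign. PPE in ORX mice gave -0.17, 0.28 and 0.14. Under PPE, ORX against sham gave -0.21, -0.13 and 0.39, so the downstream probe alone was higher. Median centring, an alternative to the percentile scaling, brought Ighm 2 past 2-fold for PPE in sham mice.

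Ighd encodes the delta constant region of IgD, which mature naive B cells carry beside IgM. Ighd 1 had a signal of 2302 on ORX/PPE and 1484 on sham/PPE, against 2086 on ORX/PBS and 1394 on sham/PBS. Ighd 2, 9394 bases downstream, had 6484 on ORX/PPE and 4675 on sham/PPE, against 7075 on ORX/PBS and 3561 on sham/PBS. Both probes were higher on the ORX arrays than on the sham arrays. The log2 differences of ORX were 0.58 and 0.42 under PPE and 0.35 and 0.76 under PBS, and those of PPE were 0.36 and 0.09 in ORX and 0.13 and 0.43 in sham mice. Every one of these values was positive and none reached 2-fold.

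Ighg1, the constant gene of IgG1, could not be measured. Its probe had signals of 5.63 on ORX/PPE and 6.64 on sham/PPE, against 7.91 on ORX/PBS and 3.61 on sham/PBS, and was not well above background on any array. The lowest signals that were lay between 9.52 and 10.8, so no difference is given. The same held for Ighe, the constant gene of IgE, which is no member.

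Ighg2b encodes the constant region of IgG2b and is the one member whose probe was spotted 10 times on each array. After spots marked as outliers were left out, its signal was 222 ± 7.42 on ORX/PPE (SD, 8 spots) and 229 ± 5.83 on sham/PPE (9 spots), against 184 ± 11.6 on ORX/PBS (10 spots) and 130 ± 7.43 on sham/PBS (10 spots). It was higher on the PPE arrays. Averaged over spots, the log2 difference of PPE was 0.49 ± 0.033 in ORX mice and 0.86 ± 0.028 in sham mice (SE over spots), and the scaled spots of the PPE and PBS arrays did not overlap in either surgery. That of ORX was -0.10 ± 0.021 under PPE and 0.27 ± 0.038 under PBS, with spots that overlapped after scaling. Spots of 1 array share its RNA pool, so these errors describe the measurement and not the mice. None of these values reached 2-fold.

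**Figure D2:**
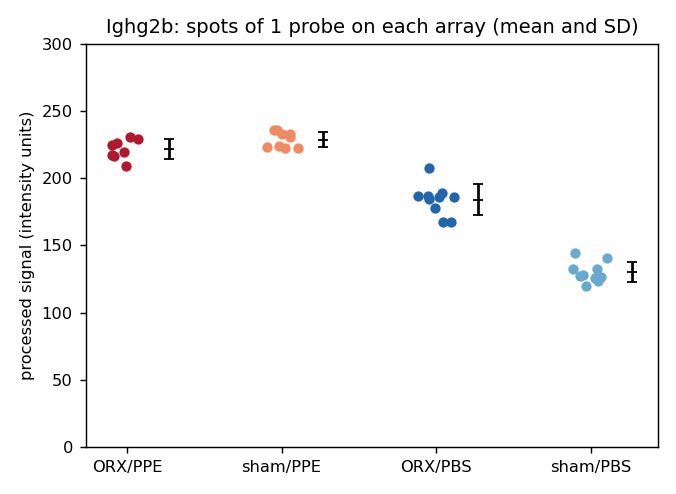
Processed signal (intensity units) of each spot of the Ighg2b probe on the 4 arrays, with the mean and SD of the spots beside them. The spots averaged 222 on ORX/PPE and 229 on sham/PPE, above 184 on ORX/PBS and 130 on sham/PBS. Points are spread sideways for sight only.

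Ighg2c, the IgG2c constant gene that C57BL/6 mice carry in place of Ighg2a, is no member but shares the 13-base run with Ighg3 1. Ighg2c 1 had a signal of 55.1 on ORX/PPE and 22.7 on sham/PPE, against 76.0 on ORX/PBS and 18.1 on sham/PBS, and Ighg2c 2 had 281 on ORX/PPE and 162 on sham/PPE, against 311 on ORX/PBS and 113 on sham/PBS. Both were higher on the ORX arrays, including under PPE, where Ighg3 was lower. The log2 differences of ORX under PPE were 1.23 and 0.74, and 0.36 at Ighg2c 3. Under PBS they were 1.84, 1.23 and 0.76. Normexp left Ighg2c 1 at 0.24 under PPE and 0.56 under PBS and Ighg2c 2 at 0.52 and 0.90, so it ended every 2-fold call of this gene. For PPE the 3 probes were at -0.25, 0.07 and 0.56 in ORX mice and at 0.36, 0.56 and 0.95 in sham mice. Ighg3 1 and Ighg2c 1 lay on opposite sides of 0 for ORX under PPE, also with normexp. Probes were compared only with probes of other isotypes and not with their transcripts, so whether a probe also reads another isotype was not tested.

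Igha encodes the alpha constant region of IgA. Igha 1 had a signal of 23470 on ORX/PPE and 21595 on sham/PPE, against 15606 on ORX/PBS and 15284 on sham/PBS. Both PPE arrays were higher than both PBS arrays. The log2 difference of PPE was 0.80 in ORX mice, 1.75-fold, and 0.54 in sham mice, 1.45-fold, while that of ORX was 0.07 under PPE and -0.20 under PBS. Igha 2, from 114493535 to 114493594, had signals of 28.7 on ORX/PPE and 30.4 on sham/PPE, against 36.0 on ORX/PBS and 24.1 on sham/PBS. It did not follow Igha 1, with log2 differences of -0.11 and 0.37 for PPE in ORX and sham mice. For ORX it was at -0.13 under PPE and 0.35 under PBS. Normexp turned the first of these 4 values to 0.14 and the last to -0.00.

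Jchain, the joining chain that links IgA and IgM into polymers, had a signal of 3456 on ORX/PPE and 3487 on sham/PPE, against 2777 on ORX/PBS and 2181 on sham/PBS. As with Igha 1, both PPE arrays were higher than both PBS arrays. Its log2 difference of PPE was 0.53 in ORX and 0.72 in sham mice, and that of ORX was -0.07 under PPE and 0.12 under PBS. Igha 1, Jchain and Ighg2b were the 3 member probes with log2 differences of PPE above 0.4 in both surgeries. None of them reached 2-fold in either surgery. Ighg2c 3, which is no member probe, was also above 0.4 in both, at 0.55 in ORX and 0.95 in sham mice.

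Mzb1, an endoplasmic reticulum protein that helps assemble IgM in plasma and marginal zone B cells, had a signal of 601 on ORX/PPE and 508 on sham/PPE, against 695 on ORX/PBS and 443 on sham/PBS. It was lowest on sham/PBS once scaled. Its log2 differences were 0.01 and 0.24 for PPE in ORX and sham mice. For ORX they were 0.19 under PPE and 0.42 under PBS.

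Xbp1 encodes the transcription factor that expands the secretory machinery of plasma cells and of other secretory cells. Xbp1 1 had a signal of 27395 on ORX/PPE and 32170 on sham/PPE, against 32272 on ORX/PBS and 31108 on sham/PBS. Xbp1 2 had 1423 on ORX/PPE and 1953 on sham/PPE, against 2110 on ORX/PBS and 1963 on sham/PBS. All 3 probes were lowest on ORX/PPE, unlike those of the heavy chains. For ORX under PPE their log2 differences were -0.28, -0.51 and -0.65, and for PPE in ORX mice -0.02, -0.35 and -0.62. In the comparisons against sham/PBS all 3 lay between -0.18 and 0.09.

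Prdm1, which encodes the repressor BLIMP-1 that drives plasma cell differentiation, varied least. Its signal was 409 on ORX/PPE and 398 on sham/PPE, against 543 on ORX/PBS and 478 on sham/PBS. The log2 differences of PPE were -0.20 in ORX and -0.23 in sham mice, and those of ORX were -0.01 under PPE and -0.05 under PBS. The transcription factors thus did not follow Igha, Jchain or Ighg2b across the arrays. T cells and airway cells also express Xbp1 or Prdm1, and which cells gave the signal in lung was not tested.

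**Figure D3:**
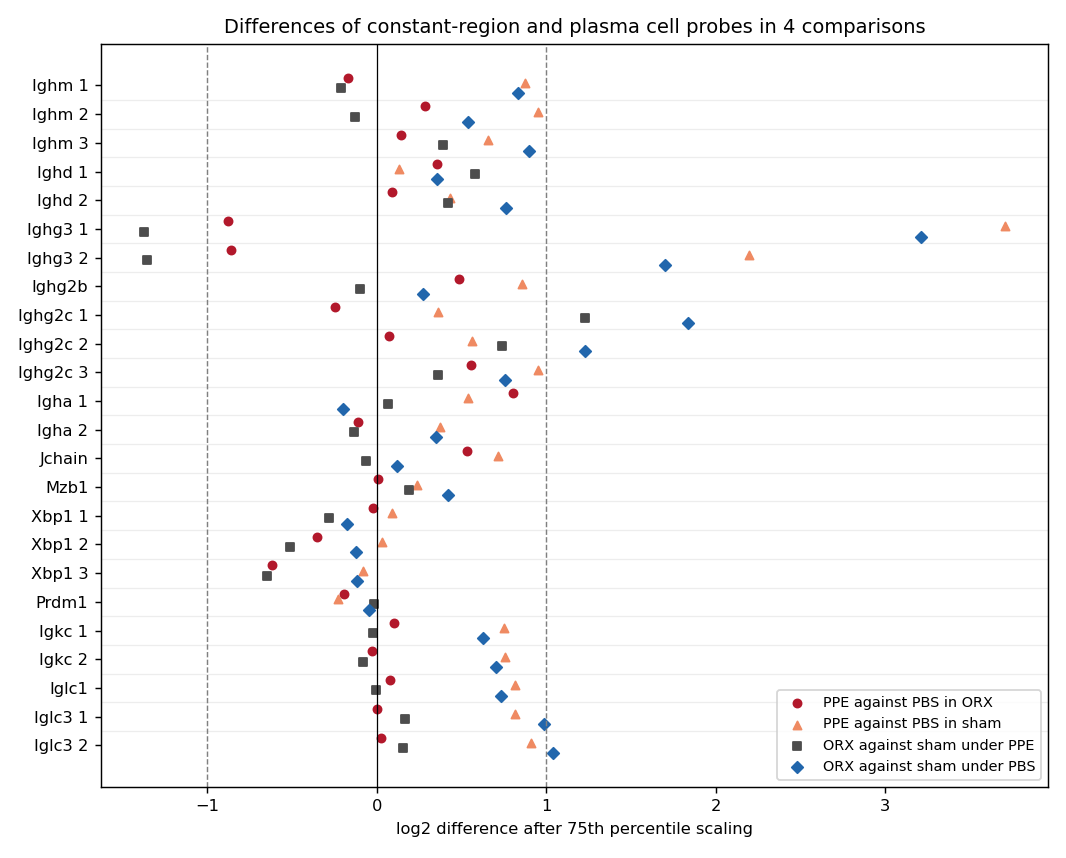
Log2 difference after 75th percentile scaling of each constant region and plasma cell probe above background on all 4 arrays, with 1 mark for each of the 4 comparisons and dashed lines at 2-fold. Ighg3 reached 3.71 and 3.21 in the comparisons against sham/PBS and -1.37 for ORX under PPE. Igha 1, Ighg2b, Jchain and Ighg2c 3, which is no member probe, had marks of PPE above 0.4 in both surgeries.

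Light chains pair with every isotype and so follow the sum of antibody transcripts. The 2 probes of Igkc, the kappa constant gene, had log2 differences of 0.10 and -0.03 for PPE in ORX and 0.75 at both for PPE in sham mice. For ORX they were at -0.02 and -0.08 under PPE, and 0.63 and 0.71 under PBS. The lambda constant genes Iglc1 and Iglc3 gave 0.74 to 1.04 for ORX under PBS, and 1 probe of Iglc3 passed 2-fold there. Light chain constant probes thus resembled Ighm in being high wherever sham/PBS was the reference, and their medians in the 4 comparisons were 0.03, 0.82, 0.00 and 0.74.

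Variable region probes gave a view of the repertoire that the constant regions do not. Of 106 heavy, 106 kappa and 3 lambda variable probes, 161 could be compared for PPE in sham mice, of which 31 passed 2-fold upward and 1 downward, beside 1.12% and 0.698% of all probes, with a median log2 difference of 0.52. For ORX under PBS 36 of 168 were higher and 2 lower, beside 0.649% and 1.38% of all probes, also with a median of 0.52. For PPE in ORX mice 6 of 175 were higher and 3 lower, beside 0.752% and 0.371% of all probes. For ORX under PPE 6 of 168 were higher and 6 lower, beside 0.421% and 1.12% of all probes. The medians of these comparisons were 0.03 and 0.06. Most of the calls were kappa probes, 26 of 88 higher for PPE in sham mice and 26 of 90 for ORX under PBS, against 4 of 70 and 9 of 75 heavy ones. Many kappa genes are near copies of each other and their probes may share signal. Most of these probes were dim, and with normexp 0 heavy or kappa variable probes passed 2-fold in any comparison, while the kappa medians were 0.41 and 0.22 in the comparisons against sham/PBS. A probe dim on 1 array of a pair was kept only where it was lower there. Probes dim on sham/PBS thus entered the comparisons against it only as higher. Some of the calls above are such bounds, so these counts and medians depend in part on the filter.

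Single variable genes departed from the rest. Igkv14-126 had a signal of 138 on ORX/PPE and 70.0 on sham/PPE, against 75.8 on ORX/PBS and 26.7 on sham/PBS, the widest range of 6 probes outside the members whose gene name starts with Igh, Igk or Igl and that were above background on all 4 arrays. It was at least 2-fold higher with PPE in both surgeries, at log2 differences of 1.08 in ORX and 1.43 in sham mice, and with ORX under PBS, at 1.28. Under PPE the ORX difference was 0.93. Iglv1 was next among these, at 0.05 for PPE in ORX and 0.95 for PPE in sham mice, -0.34 for ORX under PPE and 0.56 for ORX under PBS. Ighv1-33 and 2 probes of Igh-VJ558 came after it, with log2 ranges over the 4 arrays of 0.74, 0.66 and 0.58. The 2 Igh-VJ558 probes align at 114498348 to 114498407 and 114503159 to 114503217. Those positions lie among the constant genes, between the probes of Ighe and Igha 1, so they are not read here as a variable gene. Igkv4-91, chosen after its values were seen, was the 1 kappa probe at least 2-fold lower for PPE in sham mice, at -1.21, and for ORX under PBS, at -1.87. Ighv1-63, likewise chosen afterwards, was the 1 heavy probe lower for PPE in ORX mice and, at -1.22, for ORX under PPE. The heavy probes higher for PPE in sham mice were Ighv1-15, Ighv2-2, Ighv3-6 and one labelled only as the region, all of them bounds against a dim sham/PBS signal.

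**Figure D4:**
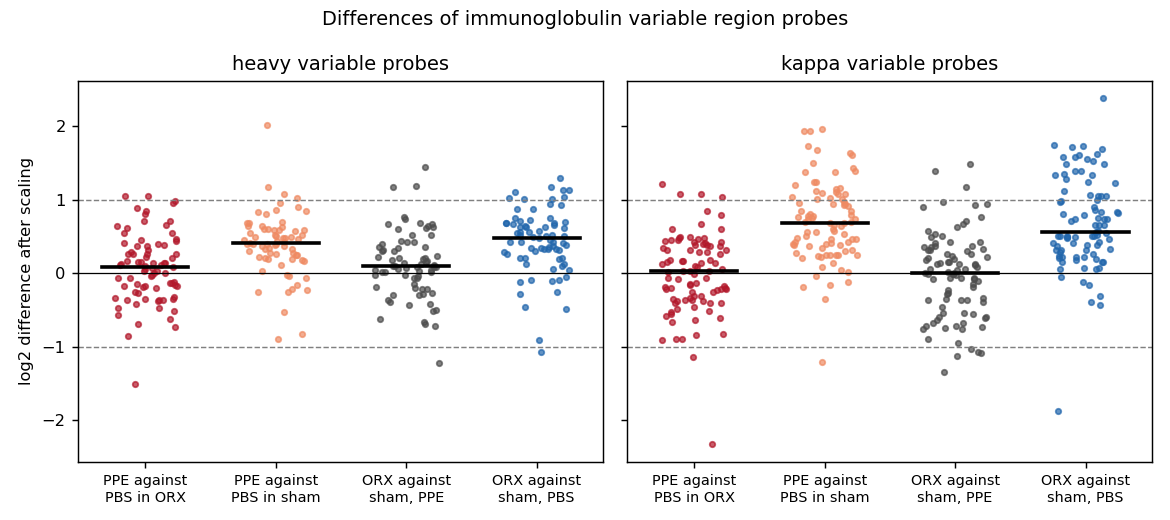
Log2 difference after scaling of each heavy (left) and kappa (right) variable region probe in the 4 comparisons, with black bars at the medians and dashed lines at 2-fold. Kappa medians were 0.69 for PPE in sham and 0.57 for ORX under PBS, and 0.03 and 0.00 in the comparisons without the sham/PBS array. Points are spread sideways for sight only, and some are bounds.

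The label of plasma cells was checked against their markers. Jchain, Mzb1, Xbp1, Prdm1 and all 22 further plasma cell genes on the list, among them the syndecan Sdc1, the factor Irf4 and the survival receptor Tnfrsf17, were well above background on every array. In whole lung many of them also have other sources, such as epithelium for Sdc1 and endothelium for Cd93. The 22 genes had median log2 differences of -0.07 for PPE in ORX, 0.10 for PPE in sham mice, 0.15 for ORX under PPE and 0.20 for ORX under PBS, and 0 passed 2-fold. The shares of all genes past 2-fold in either direction were 1.09%, 1.78%, 1.78% and 1.94%. Tnfrsf17, the receptor BCMA that long-lived plasma cells need, was at 0.48 for PPE in ORX and 0.18 for PPE in sham mice, and at 0.48 for ORX under PPE and 0.17 under PBS. No gene of this list passed 2-fold in the comparisons where Ighg3 did.

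B cell genes mostly had positive log2 differences for ORX and for PPE in sham mice, and few passed 2-fold. Of 21 measured genes, 18 had positive log2 differences for ORX under PPE, with a median of 0.26. Of the 21, 0 passed 2-fold there, beside 0.322% of all genes higher and 1.46% lower. Under PBS 20 were positive with a median of 0.64, and 4 were at least 2-fold higher and 0 lower, where 0.687% of all genes were higher and 1.26% lower. Those were Ms4a1, the B cell surface protein CD20, at 1.54, the IgM receptor Fcmr at 1.11, the antigen receptor subunit Cd79b at 1.02 and Fcrla at 1.01. With normexp Fcrla was at 0.88, and with quantile normalization and the series' deposited values Cd79b was at 0.98, so 3 of the 4 passed in each. Ms4a1 had a signal of 3423 on ORX/PPE and 2349 on sham/PPE, against 4135 on ORX/PBS and 1211 on sham/PBS. Like most heavy chain probes it was lowest on sham/PBS. For PPE the medians were 0.06 in ORX and 0.40 in sham mice, with 13 and 20 of the 21 genes positive. In either surgery 0 passed 2-fold, where 0.695% of all genes were higher with PPE in ORX and 1.37% in sham mice. T cell genes had medians of 0.18 for ORX under PPE and 0.41 under PBS over 10 genes, and of -0.08 and 0.13 for PPE in ORX and sham mice, and 0 of them passed 2-fold.

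**Figure D5:**
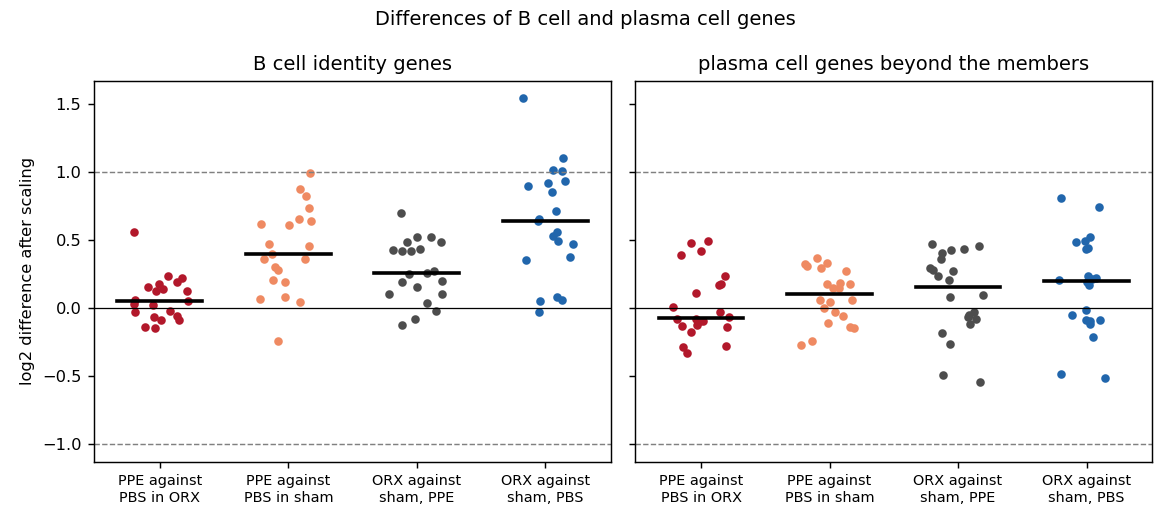
Log2 difference after scaling of 21 B cell genes (left) and 22 plasma cell genes beyond the members (right) in the 4 comparisons, with black bars at the medians and dashed lines at 2-fold. The B cell medians were 0.06, 0.40, 0.26 and 0.64, and the plasma cell medians -0.07, 0.10, 0.15 and 0.20. Points are spread sideways for sight only.

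Genes of class switching and the germinal centre differed little. Cd40lg, the T cell ligand whose signal to B cells calls for switching, was not well above background on any array. The 19 measured genes of this list had medians of -0.02, 0.10, -0.03 and 0.20 for PPE in ORX, PPE in sham, ORX under PPE and ORX under PBS. Of them 0 passed 2-fold, beside 1.09%, 1.78%, 1.78% and 1.94% of all genes in either direction. Ifng and Tgfb1, cytokines that in mice favour switching to IgG2a or IgG2c and to IgA, were at -0.29 and 0.02 for PPE in ORX and 0.16 and 0.37 for PPE in sham mice. For ORX they were at 0.18 and -0.00 under PPE and 0.63 and 0.35 under PBS.

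Genes typical of other tissues differed between the arrays. The sums of heart, testis and fat genes were highest on sham/PPE, where Ighg3 was also highest, and that of liver genes was not. The summed signal of 11 heart muscle genes was 27474 on ORX/PPE and 137349 on sham/PPE, against 64432 on ORX/PBS and 67564 on sham/PBS. That of 6 testis genes was 118 on ORX/PPE and 2226 on sham/PPE, against 126 on ORX/PBS and 121 on sham/PBS. Heart genes had medians of -0.97 for PPE in ORX and 0.74 for PPE in sham mice. For PPE 4 of the 11 were at least 2-fold lower in ORX mice and 2 higher in sham mice, beside 0.394% and 1.37% of all genes. For ORX under PPE 9 of the 11 were at least 2-fold lower, beside 1.46% of all genes. For ORX under PBS 0 passed and the median was -0.25. The 8 fat genes summed to 24467 on ORX/PPE and 49679 on sham/PPE, against 41487 on ORX/PBS and 29211 on sham/PBS. The 10 liver genes summed to 3390 on ORX/PPE and 3571 on sham/PPE, against 4313 on ORX/PBS and 2219 on sham/PBS. Most of that sum was 1 gene, Apoa2, at 2947 on ORX/PPE and 2219 on sham/PPE, against 3558 on ORX/PBS and 1810 on sham/PBS. The sums are of signals before scaling. Fat genes had median log2 differences of -0.37 with PPE in ORX mice, 0.98 with PPE in sham mice, -1.27 with ORX under PPE and 0.25 with ORX under PBS. Those of the liver genes were -0.64, 1.21, -0.48 and 0.58 in the same order. The medians of both lists had the sign of the Ighg3 differences in all 4 comparisons. So did those of the class switch, plasma cell recruitment, complement and lymphoid stroma lists, so the match is not particular to fat and liver. The fat and liver sums were both larger on ORX/PBS than on sham/PBS. Which tissue these transcripts came from was not tested, nor was the part of RNA from other tissues in the immunoglobulin values.

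Markers of thymus and of lymphoid stroma were at or near background in part. The thymus genes Rag1, Rag2 and Ptcra were not well above background on any array. Dntt, the remaining gene of that list, had a log2 difference of 1.14 for ORX under PPE, beside 0.322% of all genes higher and 1.46% lower, and 0.91 for PPE in ORX mice. With normexp these were 0.56 and 0.64, and the first no longer passed 2-fold. Dntt was at 0.08 with PPE in sham mice and 0.31 with ORX under PBS. Of the lymphoid stroma genes Madcam1 was not well above background, and the list of 6 summed to 10071 on ORX/PPE and 11831 on sham/PPE, against 12172 on ORX/PBS and 9015 on sham/PBS. Its 5 measured genes had medians of -0.10 and 0.00 for PPE in ORX and sham mice and -0.30 and 0.23 for ORX under PPE and PBS, and 0 passed 2-fold. The part of lymphoid tissue in the immunoglobulin values was not tested.

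Among 18138 genes outside the immunoglobulin loci that were above background on all arrays, those with the pattern closest to Igha 1 were found by the distance between centred log2 values over the 4 arrays. Retnla, a secreted product of alternatively activated macrophages, was closest at 0.024, with log2 differences of 0.81 for PPE in ORX and 0.51 for PPE in sham mice, and 0.09 and -0.21 for ORX under PPE and PBS. Rims3, the collagen chain gene Col5a2, Eddm3b and Bhlhe22 followed at 0.073 to 0.10. Closest to the mean of Ighg3 2 and Ighg2b were Gm5150 at 0.19, the schlafen gene Slfn1 at 0.22, Slc36a3os at 0.22, the stefin gene Stfa1 at 0.27 and the ion channel gene Asic1 at 0.27. Closest to Ighm 2 were Cd200r4 at 0.079, Olfr455, Mybph, the formyl peptide receptor Fpr1 and the Toll-like receptor Tlr6, the last at 0.12. With 4 arrays and so many genes, near matches are common.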

How the data were processed

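Lung total RNA, pooled from 5 mice for each of 4 groups, was labelled with Cy3 and hybridised to 1 Agilent array a group, per the labels. The authors deposited scanner files whose processed signal is, per the file headers, a background-subtracted linear intensity not normalized between arrays, from design 074809 and mm9 probe positions. The headers name Feature Extraction 10.7.1.1, and the submitters' processing notes 9.5.1.1. The deposited series value table, also linear intensity, served as an alternative. Mark columns of 0 or 1 for background and outliers are other deposited values, per the file headers.

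Control spots and outlier spots were left out, spots of a probe averaged, log2 taken and each array's 75th percentile over spots subtracted. A gene was its brightest probe. A probe well above background on 1 array only gave a bound against the higher of its dim signal and the lowest signal well above background. It was left out where its bright signal was not above that value once scaled. Called means at least 2-fold. With 1 array a group no test was possible. Members and gene lists (plasma cell, B cell, class switch, recruitment, antibody receptor, complement, secretory stress, T cell, thymus, lymphoid stroma, heart, fat, liver and testis) were chosen with earlier results of these data known. Named were all members, up to 4 called genes a list and direction, the 5 nearest patterns and the widest immunoglobulin genes. The heart, fat, liver and testis lists also held called genes, which were not named. Other list genes named were picked after their values were seen. Alternatives were normexp (offset 50), median centring, quantile normalization, the value table, other filters, a 1.5-fold threshold and averaging a gene's probes. The steps were tested on simulated data. Python 3.11.15 (numpy 2.4.6, pandas 2.3.3, matplotlib 3.10.9) and limma 3.58.1 in R 4.3.3 were used. One gene of the lists is not reported here.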

Additional observations from a re-analysis of the deposited data

Results flagged for a closer look

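The log2 difference of PPE in Ighg3 had opposite signs in the 2 surgeries. Its value in ORX mice minus that in sham mice was -4.59 at the probe Ighg3 1, from -0.88 in ORX and 3.71 in sham mice. It was -3.06 at Ighg3 2, from -0.86 in ORX and 2.19 in sham mice. With 1 array in each group the difference was not tested. The probes lie 14 bases apart on 1 gene and were read on the same 4 arrays, so they are not separate observations of the mice.

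Other probes were marked because the PPE differences in the 2 surgeries, or the ORX differences under the 2 agents, had opposite signs. In each of them one of the opposed values was under 1.5-fold in size, and none of these differences was tested. The same quantity, PPE in ORX minus PPE in sham, was -1.04 at Ighm 1, -0.67 at Ighm 2, -0.61 at Ighg2c 1 and -0.37 at Ighg2b. It was 0.27 at Igha 1, -0.48 at Igha 2 and -0.19 at Jchain, and -0.11 and -0.39 at Xbp1 1 and 2. Among light chains it was -0.65 and -0.79 at the Igkc probes, -0.74 at Iglc1 and -0.82 at one probe of Iglc3.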

How the results depend on the processing

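With 1 array a group, no replicate could be left out, and no value here says how mice of a group vary. No paired analysis was possible because each group has 1 array and no replicate number. Of 96 log2 differences of members and other constant genes, normexp kept the sign of 92, quantile normalization 91, median centring 94 and the series' deposited values 91, and the changed signs were of values no farther from 0 than -0.11, except Igha 2 for ORX under PBS, at 0.35, which was -0.00 with normexp. Of 10 that passed 2-fold, 7 still did with normexp and all 10 with the other scalings, and Ighg3 passed under every scaling tried. At a 1.5-fold threshold 1 member probe was higher and 3 lower for PPE in ORX, and 7 were higher and 0 lower for PPE in sham. For ORX 0 were higher and 3 lower under PPE, and 5 higher and 0 lower under PBS. At 2-fold 0 passed for PPE in ORX and 2 in each of the other comparisons. The share of all probes past 1.5-fold is not given and the members were picked from these contrasts, so nothing is read from these counts. Counts of all genes past 2-fold were 213 of 19560 for PPE in ORX and 348 of 19591 for PPE in sham. For ORX they were 348 of 19556 under PPE and 382 of 19651 under PBS. The 4 counts became 26, 63, 94 and 92 with normexp, 1548, 1805, 1769 and 1714 with no filter on dim probes, 1125, 1760, 1338 and 1838 at 1.5-fold, and 527, 690, 685 and 653 with the mean of a gene's probes. Normexp also moved the split of higher and lower genes, to 55 and 8 for PPE in sham, from 269 and 79, and to 4 and 90 for ORX under PPE, from 63 and 285. With only probes above background on both arrays the first was 132. Normexp adds an offset that shrinks differences of dim probes.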

Other observations

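Genes of receptors that bind or carry antibody mostly had positive log2 differences against sham/PBS, and few passed 2-fold. The 14 genes of receptors and transport had median log2 differences of 0.08 for PPE in ORX and 0.41 for PPE in sham mice. Those of ORX against sham were -0.04 under PPE and 0.32 under PBS. In each of the comparisons against sham/PBS 12 of the 14 were positive, with Pigr and Fcrl5 negative in both. For PPE in sham mice 0 passed 2-fold, where 1.37% of all genes were higher, and for ORX under PBS 1 did, Fcmr, where 0.687% were higher. Fcgr4, an activating IgG receptor of myeloid cells, had PPE differences of 0.52 in ORX and 0.90 in sham mice, and ORX differences of 0.20 under PPE and 0.58 under PBS. Pigr, which carries polymeric IgA across epithelium, had a PPE difference of -0.45 in sham mice and an ORX difference of -0.70 under PBS. The PPE difference in ORX mice was 0.17 and the ORX difference under PPE -0.08. Its signal was 89162 on ORX/PPE and 90659 on sham/PPE, against 92054 on ORX/PBS and 127539 on sham/PBS. The sham/PBS array was thus highest for Pigr, where most immunoglobulin probes were lowest.

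Genes of plasma cell recruitment and survival had medians of -0.05 and 0.16 for PPE in ORX and sham mice and -0.18 and 0.23 for ORX under PPE and PBS. The chemokine gene Cxcl9 alone of 18 passed 2-fold, at 1.13 for PPE in sham mice, where 1.37% of all genes were higher. With normexp it was at 0.61, which ends that call. Complement genes of the classical pathway had medians of -0.09 for PPE in ORX and 0.21 for PPE in sham mice, and of -0.10 and 0.07 for ORX under PPE and PBS. Of these genes 0 passed 2-fold, beside 1.09%, 1.78%, 1.78% and 1.94% of all genes in either direction. Secretory stress genes, which Xbp1 controls in part, had medians of -0.02, 0.04, -0.13 and -0.09 in the same order. For ORX under PPE, where all 3 Xbp1 probes were low, 24 of those 28 genes were negative. For PPE in ORX mice, where the Xbp1 probes were at -0.02, -0.35 and -0.62, 17 were negative. For ORX under PBS, where they were at -0.18, -0.12 and -0.12, 19 were, and for PPE in sham mice 10 were. Of the 28 genes 0 passed 2-fold in any comparison, beside 1.09%, 1.78%, 1.78% and 1.94% of all genes in the order above. Whether these genes follow Xbp1 was not tested. The share of all genes that were negative is not given, so nothing is read from the counts of negative genes.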
